A study of Mus musculus with 8 samples.

Results

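The transcripts described here are those of 7 genes, 6 of the steroid pathway of Leydig cells and the retinal dehydrogenase gene Aldh1a1, listed in the files in lower case as star, cyp11a1, cyp17a1, hsd3b1, hsd3b6, fdx1 and aldh1a1. They were chosen by gene symbol, out of 2243 symbols, and all 7 were read, through 11 of the 2783 deposited transcripts. Poly(A) RNA of whole testes from adult male C57BL/6 mice was sequenced directly on Nanopore chips, so that a read stands for an RNA molecule and carries the length of its poly(A) tail. The wt mice carried unaltered Tent5c (Tent5c wt/wt), and the dcat mice carried in both copies an allele whose product has no catalytic activity (Tent5c dcat/dcat). The allele is in the germ line, so it is not limited to Leydig cells. Each genotype received a single dose of busulfan at 20 mg/kg, an alkylating drug that depletes dividing germ cells, or vehicle, and testes were taken 4 weeks later. There were 2 mice, and so 2 libraries, in each of the 4 groups. The p-values below set a difference against the spread between mice of a group. With so few mice, that spread was in part borrowed from other transcripts and, for counts, from the other groups. The 8 libraries were run as 2 multiplexed libraries that each held 1 mouse of every group, and the replicate number names the multiplexed library.

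Leydig cells lie between the seminiferous tubules and make testosterone from cholesterol. STAR carries cholesterol into mitochondria, where CYP11A1, fed with electrons by the ferredoxin FDX1, cuts its side chain to give pregnenolone. HSD3B enzymes and CYP17A1 then turn pregnenolone into androgens. ALDH1A1 stands outside this pathway and oxidises retinal to retinoic acid, the signal that starts germ cell differentiation. TENT5C is a cytoplasmic poly(A) polymerase that lengthens the tails of chosen mRNAs, many of which encode secreted proteins. Insl3, which encodes the peptide hormone of Leydig cells, serves below as the comparator.

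Reads per library ran from 29574 to 129074, and both extremes were libraries of the dcat vehicle group. Mitochondrial transcripts made up 4.38 to 6.08% of reads after vehicle and 14.0 to 16.2% after busulfan. RNA of Leydig cells was present in the whole testis, where 9 of 16 other Leydig genes were read, although the steroid pathway genes Nr5a1 and Lhcgr had no transcript in the table used here. Other somatic cells were read as well. After busulfan the 16 Sertoli genes read, of 24 on the list, summed to 42043 and 41230 RPM (reads-per-million of the library total) in the wt libraries and to 37914 and 27725 in the dcat libraries, against 4408 to 7202 after vehicle. The 17 spermatid genes summed to between 103402 and 129945 RPM after vehicle. After busulfan they stood at 10234 and 14503 in the wt libraries and at 23861 and 42347 in the dcat libraries. Spermatid RNA was thus higher in both dcat than in both wt busulfan libraries. The 3 peritubular genes read of 8 summed to 1324 to 1696 RPM after busulfan, the 3 macrophage genes read of 11 to 703 to 1074, and none of 8 endothelial genes was read. The 2 erythroid genes read of 5 summed to 924 and 771 RPM in the wt and to 0 and 20.7 in the dcat busulfan libraries. In whole testis, fewer cells of a type and less RNA per cell cannot be told apart.

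The 11 transcripts lie on 4 chromosomes (GRCm38, GENCODE annotation). Star-201 covers chromosome 8 from 25808474 to 25815982 on the plus strand in 7 exons, and most of it is a 3′ UTR of 3096 bases. Cyp11a1-201 (plus strand, 58014671 to 58027023, 9 exons) and Fdx1-201 (minus strand, 51943306 to 51963546) are on chromosome 9. Hsd3b1 (98852194 to 98859794) and Hsd3b6 (98805504 to 98814443) are neighbours on the minus strand of chromosome 3, with 2 transcripts read for each. Chromosome 19 holds Cyp17a1 on the minus strand, as Cyp17a1-201 (46667165 to 46672974) and Cyp17a1-204 (46667180 to 46673172). It also holds Aldh1a1 on the plus strand, as Aldh1a1-201 (20601961 to 20643462) and the longer Aldh1a1-206 (20492715 to 20643465), which starts far upstream and shares the last exon. The shorter transcript of each such pair had 98.2% of its exon bases in common with the longer one for Aldh1a1, 99.2% for Cyp17a1 and every base for Hsd3b1 and Hsd3b6. A read that does not reach the distinguishing exons can therefore be assigned to either, and values pooled per gene are given beside those per transcript.

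Paralogs share less. The coding sequences of Hsd3b1 and Hsd3b6 were 90.02% identical and those of Aldh1a1 and Aldh1a7 91.71%, but their last 300 bases, where direct RNA reads begin, were 65.62% and 75.56% identical. A search of the last 40 bases of each transcript found the poly(A) signal AATAAA in all of them except Star-201, which had the variant ATTAAA.

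Promoters were at hand for 5 of the genes (RefSeq, GRCm38.p6). They were searched on both strands for AGGTCA, the core to which NR5A1, the nuclear receptor that drives steroidogenic genes, binds. It was found in 1 of the 7 promoters of these genes, 1 of a pair listed for Cyp11a1, and in 16.26% of all 32851 promoters of 300 bases. The stretch of the Cyp11a1 promoter that holds it, chr9:58014802-58014951 on the plus strand, ends at that RefSeq start, which lies within the GENCODE transcript Cyp11a1-201 and downstream of its first base. It is printed because this gene commits cholesterol to steroid synthesis, with the motif in capitals.
Cyp11a1 promoter: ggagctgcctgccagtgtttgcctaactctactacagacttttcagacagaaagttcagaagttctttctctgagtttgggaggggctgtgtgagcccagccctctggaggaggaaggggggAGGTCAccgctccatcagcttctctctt
The match is a description of letters and was not tested as a binding site.

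The first comparison asks how much of the testis mRNA each transcript made up after busulfan. All 11 transcripts rose in both genotypes. The deposited transcripts had at least 10 reads in 2 libraries of a condition. Of the members, only Cyp17a1-201, Fdx1-201 and Aldh1a1-206 met this in a vehicle group. The others entered through their busulfan libraries, so their rise was in part set by that entry. Their fold changes, p-values and calls after busulfan, given gene by gene below, carry the same limit. The same held for several transcripts of the lists below, which are named there. How far it held for the rest of the lists was not tested. The rise ran from 2.21-fold (Fdx1) to 14.8-fold (Star) in wt testes, leaving out Hsd3b1-201 with its single vehicle read, and from 2.35-fold (Fdx1) to 8.73-fold (Hsd3b6-201) in dcat testes. The edgeR quasi-likelihood test called 35.4% of all 2783 transcripts higher after busulfan in wt and 31.3% in dcat mice. The median log2 change of the members was 3.26 in wt and 2.61 in dcat mice, against 0.09 and 0.14 for all transcripts. Other somatic genes rose by like amounts, with 19 of 19 Sertoli transcripts called higher in wt (median log2 change 2.95) and 18 of 19 in dcat mice (2.68). The 15 transcripts of the other Leydig genes were all called higher in each genotype, with medians of 2.92 and 2.82. The share of the members' rise that follows from the loss of germ cell RNA was not tested.

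**Figure D1:**
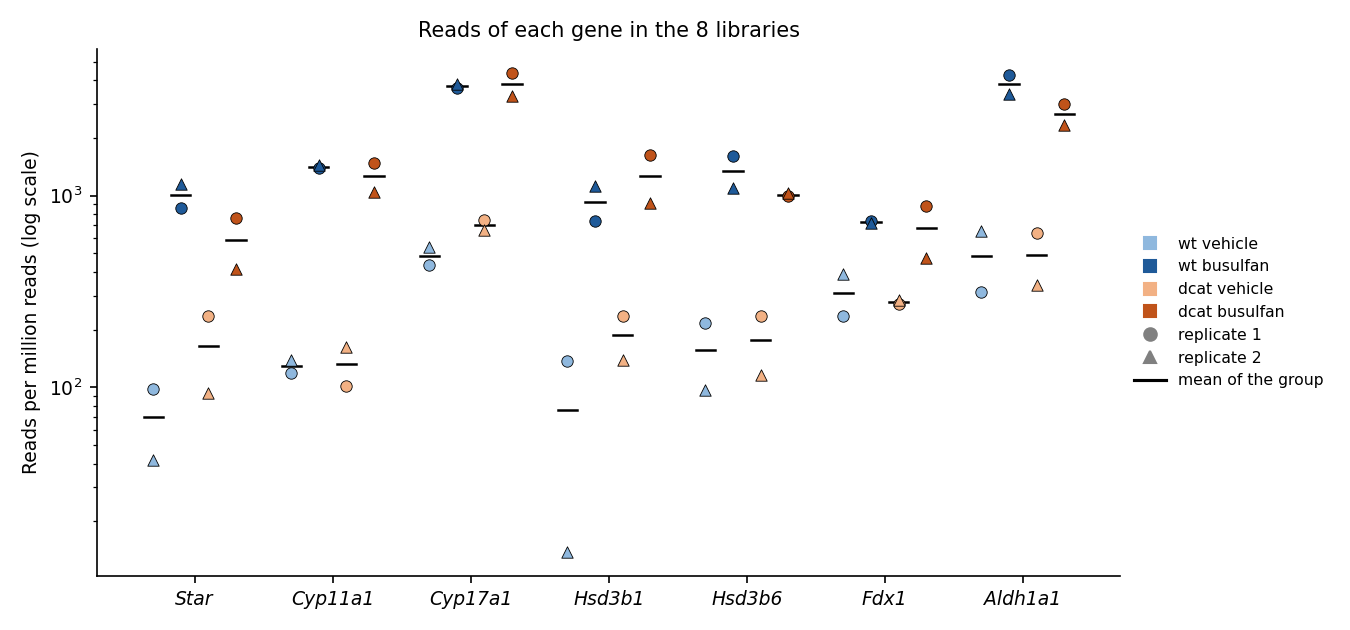
RPM (log axis) of the 7 genes in each of the 8 libraries, with wt and dcat mice after vehicle and after busulfan and 1 point per library. Every gene stands higher in all 4 busulfan libraries than in the vehicle libraries of the same genotype.

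Among the steroid genes, Star, whose product limits the supply of cholesterol, had 5 and 3 reads in the wt vehicle libraries and 57 and 133 after busulfan. In dcat mice it had 7 and 12 reads after vehicle and 47 and 40 after busulfan. The wt groups were 69.9 ± 38.2 and 999 ± 358 scaled counts-per-million (SD, n = 2), and the dcat groups 164 ± 96.5 and 595 ± 226. The log2 change was 3.89 (SE 0.56, edgeR adjusted p = 2.9e-06), a 14.8-fold rise, in wt mice and 2.12 (SE 0.52, adjusted p = 0.00167), a 4.36-fold rise, in dcat mice. With so few vehicle reads the ratio itself is wide, and the wt ratio of RPM was 16.1 with an exact 95% interval of 8.0 to 37.8 for counting error alone.

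Cyp11a1, the enzyme of the first step, went from 6 and 10 reads after vehicle to 92 and 167 after busulfan in wt mice, and from 3 and 21 to 91 and 101 in dcat mice. Its log2 change of 3.39 (SE 0.44, edgeR adjusted p = 9.24e-07) in wt and 3.08 (SE 0.43, adjusted p = 1.69e-05) in dcat mice was near the same size within both multiplexed libraries in wt (3.37 and 3.46). In dcat mice it was 3.88 and 2.71. Fdx1, the electron donor of this enzyme and of mitochondrial enzymes in many other cells, had 12 and 28 reads after vehicle and 49 and 83 after busulfan in wt, and 8 and 37 against 54 and 46 in dcat libraries. Its change was the smallest of the 11, at 1.14 (SE 0.42, edgeR adjusted p = 0.0159) in wt and 1.23 (SE 0.43, adjusted p = 0.0162) in dcat mice. DESeq2 did not call it in either genotype (1.04, adjusted p = 0.0901, and 1.07, adjusted p = 0.11).

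Cyp17a1, which makes androgen precursors, had 22 and 39 reads after vehicle and 242 and 441 after busulfan in wt mice. The dcat mice gave 22 and 85 reads after vehicle and 268 and 319 after busulfan. Cyp17a1-201 held most of them and rose by 2.90 (SE 0.35, edgeR adjusted p = 4.12e-07) in wt and 2.61 (SE 0.35, adjusted p = 1.15e-05) in dcat mice on the log2 scale. Cyp17a1-204, with 7 exons in place of 8 and a last exon of 938 in place of 444 bases, held 7.26 and 9.5% of the gene's reads in wt and 6.58 and 13.8% in dcat busulfan libraries. It was called higher in both genotypes (2.58, edgeR adjusted p = 0.00203, and 1.79, adjusted p = 0.0125), although DESeq2 did not call it in dcat mice (1.45, adjusted p = 0.126). In dcat mice its busulfan and vehicle libraries overlapped, the only such case among the 11 transcripts in either genotype.

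The HSD3B genes encode the dehydrogenases that convert pregnenolone to progesterone. Hsd3b1 went from 7 and 1 reads to 49 and 129 with busulfan in wt mice and from 7 and 18 to 100 and 89 in dcat mice. Hsd3b1-202 rose by 3.73 (SE 0.60, edgeR adjusted p = 9.42e-06) in wt and 2.95 (SE 0.52, adjusted p = 0.000127) in dcat mice. The wt values within the multiplexed libraries were far apart, at 2.28 and 6.15, since 1 of them rests on a single vehicle read. Hsd3b1-201 had 1 and 0 reads after vehicle and 6 and 21 after busulfan in wt libraries, a ratio of 18.3 with an exact 95% counting interval of 3.01 to 749, and it was called higher in both genotypes (edgeR adjusted p = 0.00209 and 0.00236), in dcat mice not by DESeq2 (adjusted p = 0.0523). Hsd3b6 had 11 and 7 reads after vehicle and 106 and 126 after busulfan in wt, and 7 and 15 against 61 and 100 in dcat libraries. Its main transcript Hsd3b6-201 rose by 3.56 (SE 0.51, edgeR adjusted p = 2.77e-06) and 3.13 (SE 0.51, adjusted p = 7.17e-05), and Hsd3b6-202 by 2.33 and 2.19, in wt and dcat mice.

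Aldh1a1 reads numbered 16 and 47 after vehicle and 280 and 392 after busulfan in wt mice. In dcat mice they numbered 19 and 44 after vehicle and 186 and 226 after busulfan. Aldh1a1-206 held 49.2 to 56.4% of them in the 4 busulfan libraries and Aldh1a1-201 the rest. Aldh1a1-201 rose by 3.26 (SE 0.40, edgeR adjusted p = 5.04e-07) in wt and 2.85 (SE 0.41, adjusted p = 2.16e-05) in dcat mice. Aldh1a1-206 rose by 2.57 (SE 0.43, edgeR adjusted p = 1.7e-05) and 2.44 (SE 0.46, adjusted p = 0.000234). Its paralog Aldh1a7 had at most 4 reads in a vehicle library and 20, 34, 10 and 18 in the wt and dcat busulfan libraries. How many reads were assigned to the wrong paralog was not measured.

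**Figure D2:**
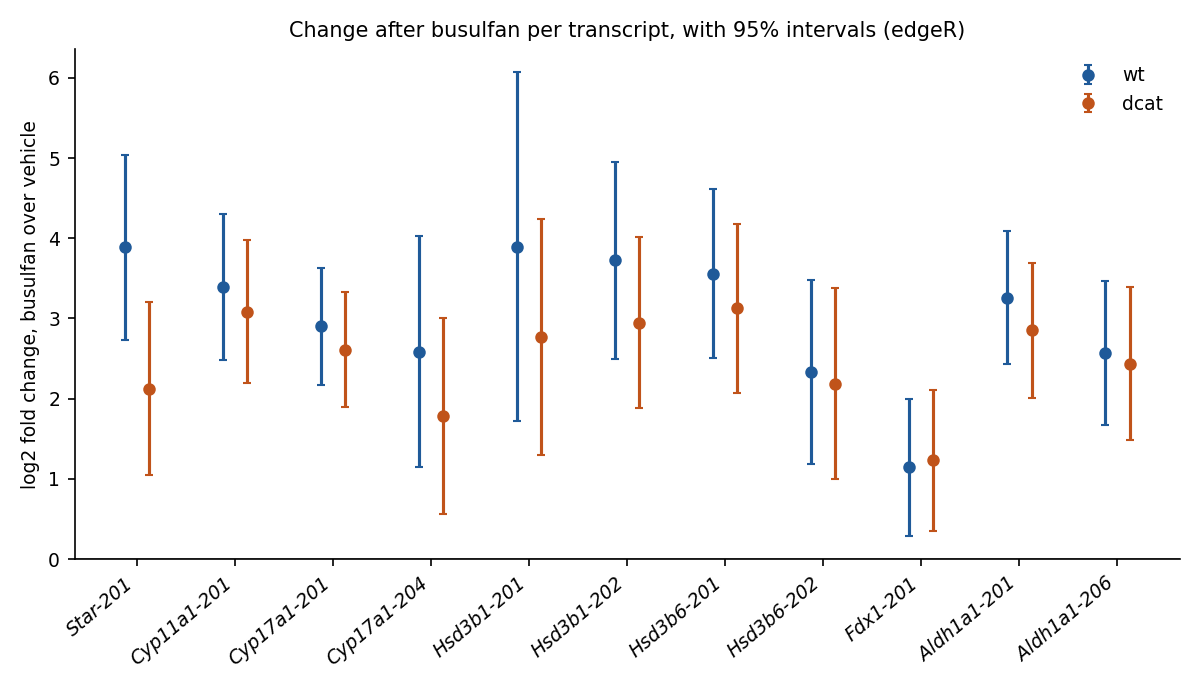
Log2 change in scaled counts after busulfan against vehicle for the 11 transcripts, with 95% intervals from the edgeR fit, in wt and dcat mice separately. All estimates lie above 0, from 1.14 for Fdx1 to 3.89 for Star and Hsd3b1-201 in wt mice.

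Some of these calls were lost when a single library was left out. Without dcat vehicle replicate 2, the largest library, the dcat calls of Star (log2 change 1.41), Cyp17a1-204, Hsd3b1-201, Hsd3b6-202 and Fdx1 were lost, and 6 of the 11 remained. Without dcat busulfan replicate 1 those of Cyp17a1-204 and Fdx1 were lost. In wt mice the call of Fdx1 was lost without wt vehicle replicate 1 or wt busulfan replicate 2, and that of Hsd3b1-201 without wt busulfan replicate 2.

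Most other transcripts read from the steroid and retinoid lists were also called higher after busulfan. Among all transcripts the share was 35.4% in wt and 31.3% in dcat mice. Of the 10 other steroidogenesis transcripts read, 7 were called higher and 0 lower after busulfan in wt mice, and 8 and 0 in dcat mice. Hsd17b3, which makes testosterone in the last step, rose by 3.29 (edgeR adjusted p = 0.000213) in wt and 2.57 (adjusted p = 0.00161) in dcat mice, and Cyb5a, the cytochrome that aids the lyase step of CYP17A1, by 3.05 (adjusted p = 4.15e-05) and 3.33 (adjusted p = 0.000166). Npc2, which exports cholesterol from lysosomes, rose by 4.09 and 2.26, and Dbi, the acyl-CoA-binding protein that also stimulates mitochondrial steroid synthesis, by 2.62 and 1.96. Vehicle means of Hsd17b3, Cyb5a and Npc2 were 33.7, 60.2 and 31.1 scaled counts-per-million in wt mice. In dcat mice they were 32.0, 36.6 and 102. At such levels these transcripts entered through their busulfan libraries, so their rise was in part set by that entry. Prkar1a, a regulatory subunit of the cAMP-dependent kinase found in most cells, had a log2 difference of 0.78 (adjusted p = 0.179) in wt and 0.39 (adjusted p = 0.535) in dcat mice.

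Genes that make cholesterol behaved less uniformly. Of 11 such transcripts, 5 were called higher and 2 lower in wt mice and 4 higher and 2 lower in dcat mice, with medians of 1.00 and 0.87. The methyl sterol oxidase Msmo1 rose by 2.38 in wt and 3.63 in dcat mice. Cyp51, a demethylase that is also abundant in spermatids, had a log2 difference of 0.49 (edgeR adjusted p = 0.374) in wt mice and rose by 1.16 (adjusted p = 0.0389) in dcat mice. All 6 other retinoid transcripts read were called higher in both genotypes, among them the retinol dehydrogenase Adh1 (4.26 and 3.33), Retsat (2.65 and 4.49) and Aldh1a7 (3.11 and 2.43). Vehicle means of Adh1, Retsat and Aldh1a7 were 7.15, 31.1 and 28.6 scaled counts-per-million in wt mice. In dcat mice they were 24.6, 16.6 and 32.6. At such levels these transcripts, too, entered through their busulfan libraries, so their rise was in part set by that entry.

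The next comparison asks whether the dcat allele changed the amount of these transcripts. After busulfan, 0 of the 11 were called different by edgeR, which called 5.39% of all transcripts higher and 0.431% lower in dcat than in wt mice. At an unadjusted p under 0.05 the count was 0 of 11 members and 564 of 2783 transcripts, and summed per gene it was 1 of 7 (Star) and 467 of 2311. DESeq2, which gave an adjusted p to 1542 of the 2783 transcripts, called 0 of the members among 47 calls. The summed level of the 6 steroid genes was 9008 and 9348 RPM in wt and 10101 and 7187 in dcat busulfan libraries. The dcat pair thus lay on either side of the wt pair. The median log2 difference of the members was -0.13 and that of all transcripts 0.20.

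Star had the largest difference of the 11 in this comparison in absolute size, -0.78 (SE 0.40, 95% interval -1.61 to 0.05, edgeR adjusted p = 0.289). It was 0.02 between the mice of multiplexed library 1 and -1.53 between those of library 2, so the estimate came from the second pair. Fitted to the 4 busulfan libraries alone, the difference of Star was -0.93 with an edgeR adjusted p of 0.012. Cyp17a1-201 differed by 0.05 (95% interval -0.58 to 0.67) and Cyp11a1 by -0.13 (-0.83 to 0.57), and Hsd3b1-202 by 0.37, Hsd3b6-201 by -0.28 and Fdx1 by -0.08. Aldh1a1-201 and Aldh1a1-206 differed by -0.43 (95% interval -1.10 to 0.23, edgeR adjusted p = 0.524) and -0.44 (-1.22 to 0.33, adjusted p = 0.589). For both, the dcat libraries lay below the wt libraries in each multiplexed library, by 0.24 and 0.61 and by 0.34 and 0.57, and the groups did not overlap. Here and elsewhere, groups of 2 against 2 libraries without overlap carry little weight. The smallest p that an exact test can give for them is 0.333. The share of all transcripts with such an order was not counted. Insl3, by contrast with the 11, was called lower in dcat mice (-1.18, SE 0.32, edgeR adjusted p = 0.0299). No test compared the differences of Insl3 and the members.

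After vehicle, 0 of the 11 transcripts and 0.0% of all transcripts in either direction were called different between genotypes by edgeR. At an unadjusted p under 0.05 the counts were 0 of 11 and 65 of 2783, and DESeq2 called 0. The estimates ran from -0.31 for Aldh1a1-206 to 1.80 for Hsd3b1-201, on at most 85 reads per gene and library. Whether the busulfan response itself depended on genotype was asked with the interaction term, for which edgeR called 0 of the 11, 0.323% of all transcripts in the positive and 0.0% in the negative direction. DESeq2 called 10 transcripts and none of the 11. It gave an adjusted p to 1003 of the 2783 transcripts, and a transcript without one could not be called. Of the 11, Star alone was under an unadjusted 0.05 (-1.76, SE 0.83, edgeR adjusted p = 0.279), as were 451 of all 2783 transcripts, and the estimates of the other 10 ran from -1.12 to 0.09.

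The poly(A) tails give the third comparison. After busulfan, Aldh1a1 transcripts carried longer tails in dcat than in wt testes, opposite in direction to Insl3, and no steroid gene passed the test. Limma compared mean tails where a transcript had 10 or more reads in every busulfan library, which held for 10 of the 11. Hsd3b1-201 was left out with 6 reads in 1 wt library. Of these 10, 1 was called longer and 0 shorter, against 0.337% of 1188 transcripts called longer and 1.01% shorter. The median difference was 9.93 nt over the members and 2.85 nt over all transcripts. With the reads of each gene pooled, 1 of 7 genes was called longer, against 0.739% of 1083 genes.

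Aldh1a1-206 had a mean tail of 104 and 101 nt in wt libraries and of 123 and 127 nt in dcat libraries after busulfan. For Aldh1a1-201 the values were 104.3 and 104.2 nt (wt) and 119.9 and 134.2 nt (dcat). For each transcript both dcat values lay above both wt values. The difference was 22.6 nt for Aldh1a1-206 (SE 5.22, 95% interval 11.5 to 33.6, limma adjusted p = 0.0363) and 22.8 nt for Aldh1a1-201 (SE 5.90, 10.3 to 35.3, adjusted p = 0.0777). With the multiplexed library as a block the limma adjusted p was 0.00819 and 0.0137, so that both were called. The call on Aldh1a1-206 was lost with libraries centred on their median (limma adjusted p = 0.0531), at least 20 reads (0.0968), all 8 libraries in the fit (0.433), and without wt busulfan replicate 1 (0.16), wt busulfan replicate 2 (0.231) or dcat busulfan replicate 2 (0.101). These transcripts share their last exon, and reads can be assigned to either, so they are no independent measurements.

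Pooled over the gene, the mean Aldh1a1 tail after busulfan was 126 ± 6.21 nt for the dcat and 103 ± 1.26 nt for the wt libraries (SD, n = 2). The difference was 22.7 nt (SE 4.44, 95% interval 13.7 to 31.8, limma adjusted p = 0.00109), and 17.5 and 28.0 nt within the multiplexed libraries. It stayed called without any 1 of the 4 libraries. Without a trend of the variance on the read number in limma, the size was the same but the adjusted p was 0.665 for the gene and 0.65 for Aldh1a1-206. The other genes called longer were 4933411K16Rik, Crisp2, Dbil5, Gm5617, Gsg1, Oaz3 and Prm1, of which Crisp2, Oaz3 and Prm1 were on the spermatid list, and spermatid RNA was higher in the dcat busulfan libraries. The part of that difference in cell content in the Aldh1a1 value was not tested.

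**Figure D3:**
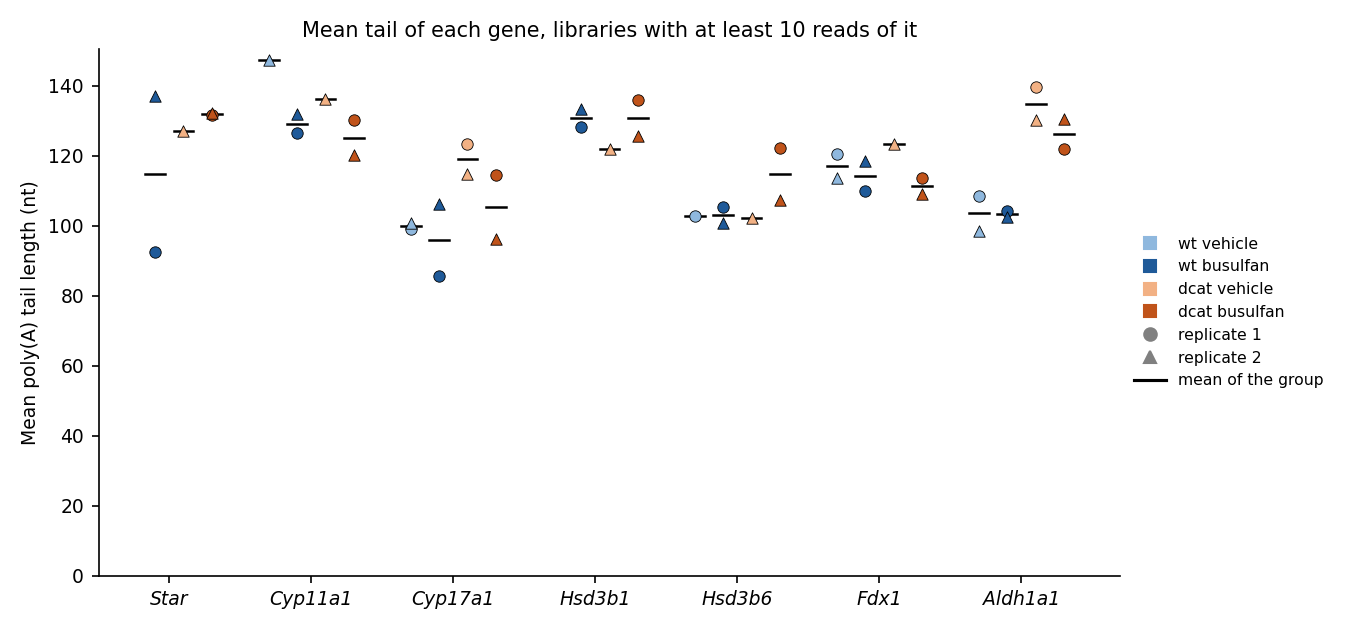
Mean poly(A) tail length in nt of the 7 genes in each library with at least 10 reads of the gene, with 1 point per library. The dcat points of Aldh1a1 (121.8 to 139.6 nt) all lie above its wt points (98.5 to 108.6 nt). After busulfan the same order holds for Hsd3b6 (107.4 and 122.2 against 100.7 and 105.2 nt), while after busulfan the genotypes overlap for the other 5 genes. After vehicle both dcat points of Cyp17a1 (123.3 and 114.8 nt) lie above its wt points (99.1 and 100.8 nt).

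The reads behind these means showed where the difference lay. In the wt busulfan libraries 62.1% (Wilson 95% interval 56.3 to 67.6) and 66.8% (62.0 to 71.3) of Aldh1a1 reads had tails of 30 to 120 nt. In the dcat busulfan libraries these shares were 52.7% (45.5 to 59.7) and 47.8% (41.4 to 54.3). Tails of 120 to 210 nt made up 23.6 and 23.5% of wt and 35.5 and 40.7% of dcat reads. Dcat libraries thus had fewer short and more middle-length tails, while tails over 210 nt made up 9.29 and 6.38% in wt and 10.2 and 10.6% in dcat libraries. The median tail was 84.9 nt in each wt library and 109.5 and 121.2 nt in the dcat libraries. The intervals cover counting error only.

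**Figure D4:**
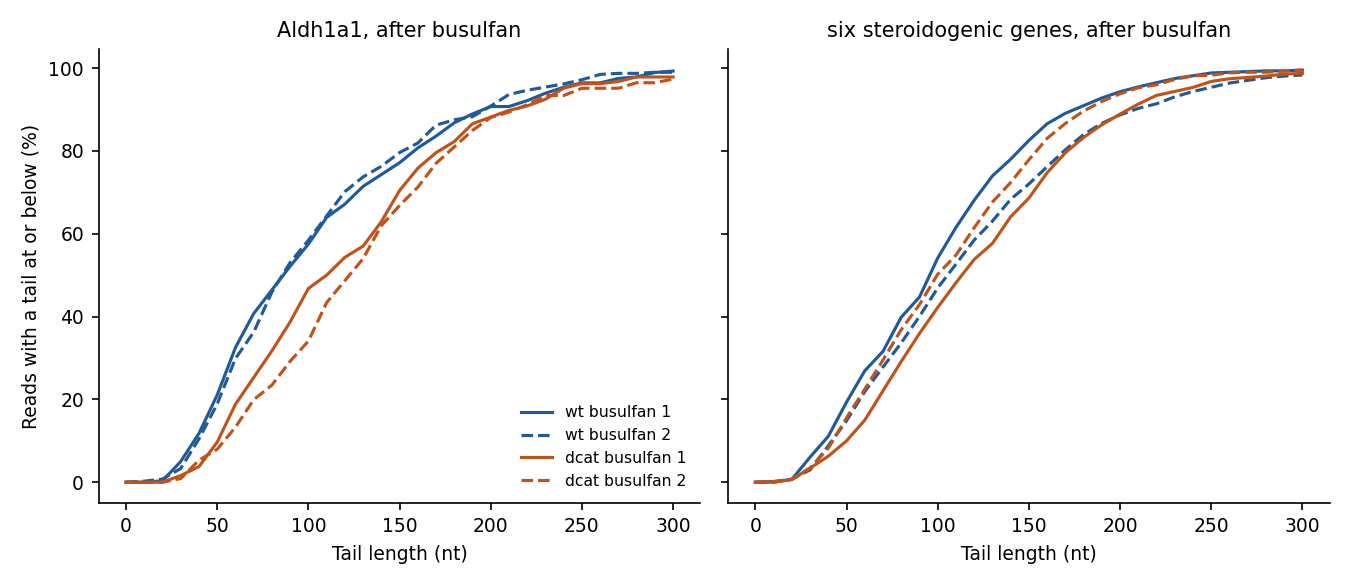
Cumulative percent of reads (y axis) with a tail at or below a given length in nt (x axis) in the 4 busulfan libraries, for Aldh1a1 and for the 6 steroid genes pooled. For Aldh1a1 both dcat curves run to the right of both wt curves around 120 nt, and for the steroid genes 1 wt curve (mean 101.6 nt) lies to the left of the other (117.5 nt), 1 dcat curve (122.3 nt) to the right of both around 120 nt, and the other dcat curve (108.1 nt) between the wt curves.

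No steroid gene passed the tail test, and among these Hsd3b6 alone had both dcat values above both wt values. Such an order of 2 against 2 libraries carries little weight, and its share over all transcripts was not counted. Star tails after busulfan were 92.4 and 137 nt (wt) against 131.8 and 132.1 nt (dcat), a difference of 17.2 nt (SE 10.6, 95% interval -5.17 to 39.5, limma adjusted p = 0.759) that was 39.4 nt in multiplexed library 1 and -5.02 nt in library 2. Cyp17a1-201 tails were 86.3 and 104 nt (wt) against 115 and 96.1 nt (dcat), a difference of 10.6 nt (SE 5.88, -1.86 to 23.0, adjusted p = 0.727), again of opposite sign within the multiplexed libraries (28.9 and -7.81 nt). In 6 of the 8 tested steroid transcripts the sign differed between the multiplexed libraries in this way. The share of all tested transcripts with such a change of sign was not counted. The pooled tail of the 6 genes was 101.6 nt in wt busulfan replicate 1 and between 108.1 and 122.3 nt in the other 3 busulfan libraries. Without wt busulfan replicate 2 the differences of Star and Cyp17a1-201 were called (39.6 nt, limma adjusted p = 0.0496, and 19.3 nt, adjusted p = 0.0449). Pooled over the gene, Cyp17a1 tails differed by 9.59 nt (limma adjusted p = 0.645), and were called without wt busulfan replicate 2 (19.9 nt) or without dcat busulfan replicate 2 (18.7 nt).

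Cyp11a1 tails were 126 and 132 nt (wt) against 130.1 and 120.2 nt (dcat), a difference of -3.93 nt (95% interval -16.7 to 8.82, limma adjusted p = 0.934), and those of Fdx1 differed by -2.89 nt (-19.7 to 14.0, adjusted p = 0.967). Hsd3b1-202 differed by 5.25 nt (-10.2 to 20.7, limma adjusted p = 0.933) and Cyp17a1-204 by -1.66 nt (-33.5 to 30.1, adjusted p = 0.993). The Hsd3b6 transcripts were longer in dcat mice within both multiplexed libraries, by 11.2 and 7.37 nt for Hsd3b6-201 and by 36.9 and 5.28 nt for Hsd3b6-202. Their differences of 9.30 nt (limma adjusted p = 0.833) and 21.1 nt (adjusted p = 0.759) did not pass the test. Among the genes of the fixed pathway lists that are not members, 0 of 7 steroidogenesis, 0 of 6 cholesterol and 0 of 4 retinoid transcripts were called for tails. Of the 15 transcripts on the list of other Leydig genes, which holds Insl3, 7 were called shorter in dcat mice and 0 longer (median -8.84 nt). These transcripts came from 9 genes, so transcripts of the same gene were counted separately. The list also holds Ptgds, which the authors name beside Insl3 as a putative target of TENT5C. Aldh1a7, the paralog of Aldh1a1, differed by 2.26 nt (SE 13.4, -26.0 to 30.5, limma adjusted p = 0.989).

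**Figure D5:**
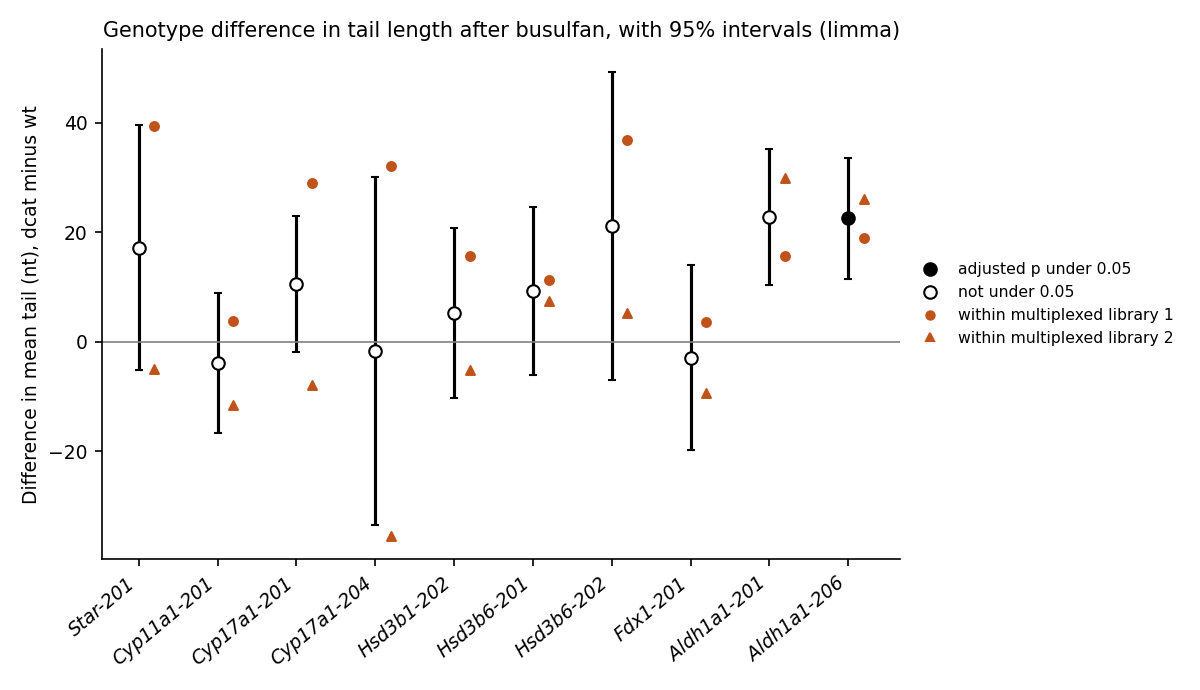
Difference in mean poly(A) tail (dcat minus wt, nt) after busulfan for the 10 transcripts tested, with 95% intervals from limma and the differences within each multiplexed library as small markers, and with the called transcript filled. The intervals of Aldh1a1-201 and Aldh1a1-206 lie above 0 and those of the steroid transcripts include 0.

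Set against Insl3 in the same libraries, whose tails were 76.3 nt shorter in dcat mice (SE 2.12, limma adjusted p = 4.17e-14), every tested member had longer tails, by 72.4 to 99.1 nt. The same was called for 99.4% of 1187 transcripts, all set against the same Insl3 values. Of 14 other Leydig transcripts it was called for 9. The comparison thus separates Insl3 from the testis transcripts at large, less so from the other Leydig genes, and says nothing particular of the members.

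After vehicle only Cyp17a1-201 had enough reads for a tail test per transcript, and per gene Cyp17a1 and Aldh1a1. By limma 0 members were called, with 0.0% of 720 transcripts called longer and 0.139% shorter. Aldh1a1 tails were 108.6 and 98.5 nt in wt and 139.6 and 130.1 nt in dcat vehicle libraries, on 16 to 47 reads each. The groups did not overlap, and the difference of 31.3 nt (SE 10.9, 95% interval 8.55 to 54.0) had an unadjusted p of 0.00955 and a limma adjusted p of 0.992. That of Cyp17a1-201 was 13.2 nt (SE 10.6, limma adjusted p = 0.989), with 4.56 and 21.8 nt within the multiplexed libraries. Its groups did not overlap either (100.6 and 95.4 nt in wt, 105.2 and 117.2 nt in dcat mice). Pooled per gene, Cyp17a1 tails were 99.1 and 100.8 nt in wt and 123.3 and 114.8 nt in dcat vehicle libraries, again without overlap and not called. Averaged over both treatments in a fit of all 8 libraries, a comparison added after the data were seen, Aldh1a1 tails were 27.0 nt longer in dcat mice (SE 4.39, 95% interval 17.1 to 36.9, limma adjusted p = 0.0151), where 0.538% of 372 genes were called longer, namely Aldh1a1 and Oaz3. Cyp17a1 differed by 14.4 nt in that fit (limma adjusted p = 0.426). The call on Aldh1a1 was lost without wt vehicle replicate 2 (24.5 nt, limma adjusted p = 0.0812), without wt busulfan replicate 2 (26.6 nt, adjusted p = 0.0858) and without the variance trend (adjusted p = 0.0639). The interaction of genotype and busulfan on Aldh1a1 tails was -8.54 nt (95% interval -28.4 to 11.3, limma adjusted p = 0.854).

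Busulfan was followed by shorter tails across the testis, with 39.1% of 527 transcripts called shorter and 0.569% longer in wt and 19.5% of 441 shorter and 0.0% longer in dcat mice, and medians of -19.9 and -17.2 nt. Only 2 member transcripts could be tested in each genotype. Limma called 0 of them, and 0 had an unadjusted p under 0.05, against 249 of 527 transcripts in wt and 163 of 441 in dcat mice. In wt mice Cyp17a1-201 differed by -2.89 nt (limma adjusted p = 0.756), Fdx1 by -2.87 nt (adjusted p = 0.836) and the pooled Aldh1a1 by -0.11 nt (95% interval -11.7 to 11.4, adjusted p = 0.991). In dcat mice the differences were -5.51 nt for Cyp17a1-201 (limma adjusted p = 0.642) and -17.2 nt for Aldh1a1-206 (adjusted p = 0.301), the latter called without dcat vehicle replicate 2 (-29.7 nt, adjusted p = 0.0224). The wt values of the members thus lay closer to 0 than the median transcript, as did the wt median of the Sertoli list. After each library was centred on its own median the wt value of Cyp17a1-201 became 20.3 nt (limma adjusted p = 0.0419).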

How the data were processed

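Libraries were made from poly(A) RNA of whole testes with a Nanopore direct RNA kit and multiplexed. The authors called bases with Guppy, aligned reads with Minimap2 (2.20-r1061 per the submitters' processing notes) to mouse transcripts of GRCm38, measured tails with Nanopolish (reads flagged PASS), assigned barcodes with Deeplexicon and kept transcripts with at least 10 reads in 2 libraries of a condition. They deposited raw read counts per transcript and a table of 621202 reads with a tail length in nt each (a value of another unit than the counts, not normalised). Read numbers in both agreed for every transcript and library. The deposited fold changes and p-values of the authors' DESeq2 comparisons were not used.

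Counts were scaled by TMM and tested with edgeR 4.0.16 quasi-likelihood (R 4.3.3, 4 groups, 8 libraries, all 2783 transcripts). Mean tails per transcript and library were tested with limma 3.58.1 (variance trend on log2 mean reads) over the 4 libraries of a contrast. Benjamini-Hochberg adjustment ran over all transcripts tested, with a threshold of 0.05. Scripts were tested on simulated data. Alternatives were DESeq2 1.42.0, other scalings and filters, sums per gene, a replicate block, other tail summaries and leaving out each library. Positions came from the GENCODE annotation, in which 2738 of 2783 transcripts were found. The exact intervals of read ratios, the Wilson intervals and the floors cover counting error only. The intervals from edgeR and limma rest on the standard error of the fit, and so on the spread between libraries.

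Named were all transcripts of the 7 genes, the comparator Insl3, the paralog Aldh1a7 and, from the steroidogenesis, cholesterol and retinoid lists, up to 5 of the most-read others each. Some items under this rule are not reported here. Members and lists were chosen with earlier results of these data known. The replicate number pairs the samples because, per the library protocol, it marks a shared multiplexed library. Deviations of same-numbered libraries correlated at -0.126 to 0.223 over the 6 pairs of groups.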

Additional observations from a re-analysis of the deposited data

How the results depend on the processing

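Of 86 single results under 1145 alternatives, 1 was called with the opposite sign, the change of Cyp17a1-201 tails after busulfan in wt mice, which was 20.3 nt (limma adjusted p = 0.0419) with libraries centred on their median against -2.89 nt. The cause was not tested. Changes of sign among values not called numbered 62. A fit that left 1 library in a group took its spread from the other groups. The count of members higher after busulfan was 7 of 7 in both genotypes when summed per gene, 9 to 11 of 11 in wt and 6 to 11 in dcat mice without 1 library, the lowest without dcat vehicle replicate 2. DESeq2 called 10 of 11 in wt and 8 in dcat mice. Between genotypes after busulfan, 1 member, Star, was called by read count with only the 4 libraries of the contrast, and per gene 0 to 1 without 1 library. For tails between genotypes after busulfan, where 1 transcript was called, 0 were called with all 8 libraries in the fit, at least 20 reads, centred libraries or no variance trend, 2 with log2 or median tails, and 0 to 2 without 1 library. The call on Aldh1a1-206 was lost without wt busulfan replicate 1 (limma adjusted p = 0.16), wt busulfan replicate 2 (0.231) and dcat busulfan replicate 2 (0.101). Per gene, 0 were called without the trend and 1 to 3 without 1 library. For tails after busulfan against vehicle, 1 transcript and 2 genes were called in wt mice with centred libraries, and 0 to 1 transcripts in dcat mice without 1 library.

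With the replicate block, 2 Aldh1a1 transcripts were called for tails between genotypes after busulfan, and no other call on a member changed. Across all transcripts the block raised the interaction calls from 9 to 123, against 85 with library size only, 68 with RLE scaling, 36 with a filter on low counts and 10 with DESeq2. DESeq2 called 47 transcripts between genotypes after busulfan, against 162, and 1660 and 1095 after busulfan in wt and dcat mice, against 2053 and 1746. RLE scaling moved the median change of all transcripts after busulfan to -0.03 in wt mice, where it had been 0.09, and to -0.08 in dcat mice, where it had been 0.14. Depth limited the vehicle libraries most, where no member gene had over 85 reads.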

Other observations

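Over the 8 libraries, the transcripts whose centred log2 levels lay closest to those of a member included none of the other Leydig genes listed. The measure is the root mean square difference, taken over 1186 or 1187 candidates with at least 10 reads in each busulfan library, and it is a description over libraries that share the same germ cell loss. Closest to Cyp17a1 were Cst9 (0.115), a cystatin of Sertoli cells, Spin1 (0.131) and Pgrmc1 (0.175). Closest to Aldh1a1 were the matrix gene Sparc (0.162), Agpat4 (0.165) and Sparcl1 (0.219), and closest to Cyp11a1 were Gsta4 (0.167), Mdh1 (0.196) and Myl6 (0.213). Star lay closest to Ctsb (0.192), Mgp (0.224) and Ass1 (0.23), and Fdx1 to Itm2b (0.129), Pttg1ip (0.185) and Rps27l (0.208). Hsd3b6 lay closest to Akr1b8 (0.189), Fam236e (0.228) and Ctsl (0.258). Hsd3b1 had no neighbour as near, with Wfdc10 (0.421), Qpct and Ctsb (0.458 each) as its closest.

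The ratio of Insl3 to the steroid genes is given as a description, with no test. There were 3.50 and 3.89 Insl3 reads per read of the 6 steroid genes in the wt busulfan libraries and at most 1.91 in the dcat busulfan libraries. After vehicle the ratios were 3.27 and 3.43 in wt and 2.61 and 1.47 in dcat mice. The Aldh1a1 reads per read of the same 6 genes were 0.471 and 0.363 (wt) and at most 0.325 (dcat) after busulfan, and overlapped after vehicle.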
